A study of Mus musculus with 8 samples.

Results

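The unfolded protein response and the heat shock response were examined through 35 genes in the forebrain of aged TgCRND8 mice. The genes were chosen by symbol as textbook chaperones and stress regulators, and all 35 were found among the 56748 genes of the deposited count table and were abundant enough to be tested. The study holds 4 libraries of TgCRND8 transgenic (Tg) brain, in which mutant human amyloid precursor protein (APP) is overexpressed from a hamster prion gene vector, and 4 libraries of non-transgenic (NTg) brain. Both groups were 18 months old, the labels name no agent, and polyadenylated RNA came from frozen, pulverised forebrain. All libraries share the value F under batch, and neither the strain nor the number of animals is given in the labels, so p-values measure the spread between these libraries, which may be technical.

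Protein folding stress is handled by separate systems in the endoplasmic reticulum (ER), the cytosol and the mitochondria. In the ER, the sensors IRE1 (Ern1), PERK (Eif2ak3) and ATF6 release signals when unfolded protein occupies the chaperone BiP (Hspa5), and the factors XBP1, ATF4 and cleaved ATF6 then induce chaperones and degradation genes. In the cytosol, HSF1 induces the heat shock proteins. APP is itself a membrane protein that folds in the ER. Gene-level counts do not show Xbp1 splicing, ATF6 cleavage or phosphorylation of eIF2 alpha, so only the levels of the transcripts were measured.

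Promoter sequences are shown first for 4 ER chaperone genes in which Tg replicate 3 was the highest of the 8 libraries, and for a chaperonin gene with a heat shock element. Windows of 250 bases before the transcription start were taken from RefSeq (build GRCm38.p6, which is older than the GRCm39 build of the counts) and were found for 28 of the 35 genes. The ER stress response element, ERSE, with the letters CCAAT and CCACG separated by 9 bases, on either strand, was found in 37 of 32851 mouse promoter windows (0.113%). It was found in the windows of 8 of the 28 genes, namely Hspa5, Hsp90b1, Calr, Canx, Creld2, Dnajc3, Pdia6 and Syvn1. The overall count is of windows and that among the 28 is of genes. These genes were chosen as textbook chaperones and stress regulators, and enrichment was not tested. Tg replicate 3 was also the highest library for Canx and Dnajc3, but not for Creld2 and Syvn1. Pdia3 and Pdia4, in which it was the highest, held 0 matches. Whether the element and the level in that library go together was not tested. In the 4 lines below capitals mark ERSE matches, which lie on the reverse strand in Calr and in the match nearer the start of Hsp90b1. The windows are Hspa5 at chr2:34771840-34772089 (plus strand), Hsp90b1 at chr10:86705445-86705694 (minus strand), Calr at chr8:84846932-84847181 (minus strand) and Pdia6 at chr12:17266339-17266588 (plus strand), each written 5′ to 3′ along the gene.
Hspa5: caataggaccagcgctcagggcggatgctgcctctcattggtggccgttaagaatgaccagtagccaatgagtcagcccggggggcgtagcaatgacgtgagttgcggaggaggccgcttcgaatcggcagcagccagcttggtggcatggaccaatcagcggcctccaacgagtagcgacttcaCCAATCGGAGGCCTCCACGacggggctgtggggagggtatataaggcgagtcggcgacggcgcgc
Hsp90b1: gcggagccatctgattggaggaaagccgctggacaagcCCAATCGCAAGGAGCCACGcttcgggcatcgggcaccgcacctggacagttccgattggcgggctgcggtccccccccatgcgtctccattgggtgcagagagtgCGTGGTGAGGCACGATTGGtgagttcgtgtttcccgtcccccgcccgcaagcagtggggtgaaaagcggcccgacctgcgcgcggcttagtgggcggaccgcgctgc
Calr: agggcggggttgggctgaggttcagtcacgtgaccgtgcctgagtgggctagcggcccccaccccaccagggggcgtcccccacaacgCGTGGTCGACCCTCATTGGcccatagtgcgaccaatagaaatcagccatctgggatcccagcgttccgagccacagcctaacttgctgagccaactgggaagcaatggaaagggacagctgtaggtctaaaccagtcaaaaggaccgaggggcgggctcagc
Pdia6: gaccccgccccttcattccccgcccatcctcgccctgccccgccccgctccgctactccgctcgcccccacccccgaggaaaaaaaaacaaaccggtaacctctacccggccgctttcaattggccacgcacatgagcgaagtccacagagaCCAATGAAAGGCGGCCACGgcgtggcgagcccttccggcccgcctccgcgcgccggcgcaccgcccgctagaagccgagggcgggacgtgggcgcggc

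The other elements were held by fewer of the 28 genes. The shorter ERSE-II, ATTGG and CCACG separated by 1 base, was found in the window of Herpud1 and in 10 windows overall (0.0304%). The unfolded protein response element TGACGTGG (0.563% of windows) and an ATF4-type element TGATGNAAT (0.816% of windows) were found in 0 of the 28. A heat shock element, written as GAA, TTC and GAA with 2 bases between neighbours, on either strand, was found in 153 windows (0.466%) and in those of Hspd1 and Hspe1, the mitochondrial chaperonin pair. These genes lie head to head, and their windows overlap and hold the same element, shown in capitals for Hspe1 at chr1:55087898-55088147 (plus strand), where both orientations of the letters match in overlapping positions.
Hspe1: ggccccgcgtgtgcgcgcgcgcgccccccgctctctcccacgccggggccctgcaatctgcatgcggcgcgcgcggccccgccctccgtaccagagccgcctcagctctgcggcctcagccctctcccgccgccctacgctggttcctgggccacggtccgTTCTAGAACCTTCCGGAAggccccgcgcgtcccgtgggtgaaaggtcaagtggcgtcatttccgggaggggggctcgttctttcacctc
A match describes these letters alone, and a window without one says nothing of the factor.

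None of the 35 genes differed between the genotypes at an adjusted p of 0.05 in the quasi-likelihood test of edgeR, adjusted over all 21588 genes tested, where 0.0139% of genes were called. The smallest adjusted p of a member was 0.551, and DESeq2 also called 0 of 35, where it called 1.63% of all genes. At an unadjusted p under 0.05, edgeR placed 2 members higher in Tg (Bag3 and Edem1) and 0 lower, where 7.36% of all genes passed, 4.68% higher and 2.68% lower. The median log2 fold change, Tg over NTg, was -0.029 over the 35 genes and -0.0024 over all genes tested, with 25 members below 0 (71.4%, against 50.8% of all genes) and 10 above. The number below 0 was 19 with no scaling factors and 20 without Tg replicate 1 or without Tg replicate 2. Fold changes of members ran from -0.21 (Hspa5) to 0.20 (Bag3) on the log2 scale.

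The intervals around these differences were narrow. For 35 of 35 members the 95% confidence interval of the fold change, taken gene by gene from the edgeR fit, lay within 1.5-fold in either direction. Among all genes tested the share was 69.4%, and the median standard error was 0.070 on the log2 scale for the members and 0.11 for all genes. Libraries held 57129090 to 65242741 counts. In tissue of mixed cells, fewer cells of a type and less RNA per cell cannot be told apart.

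**Figure D1:**
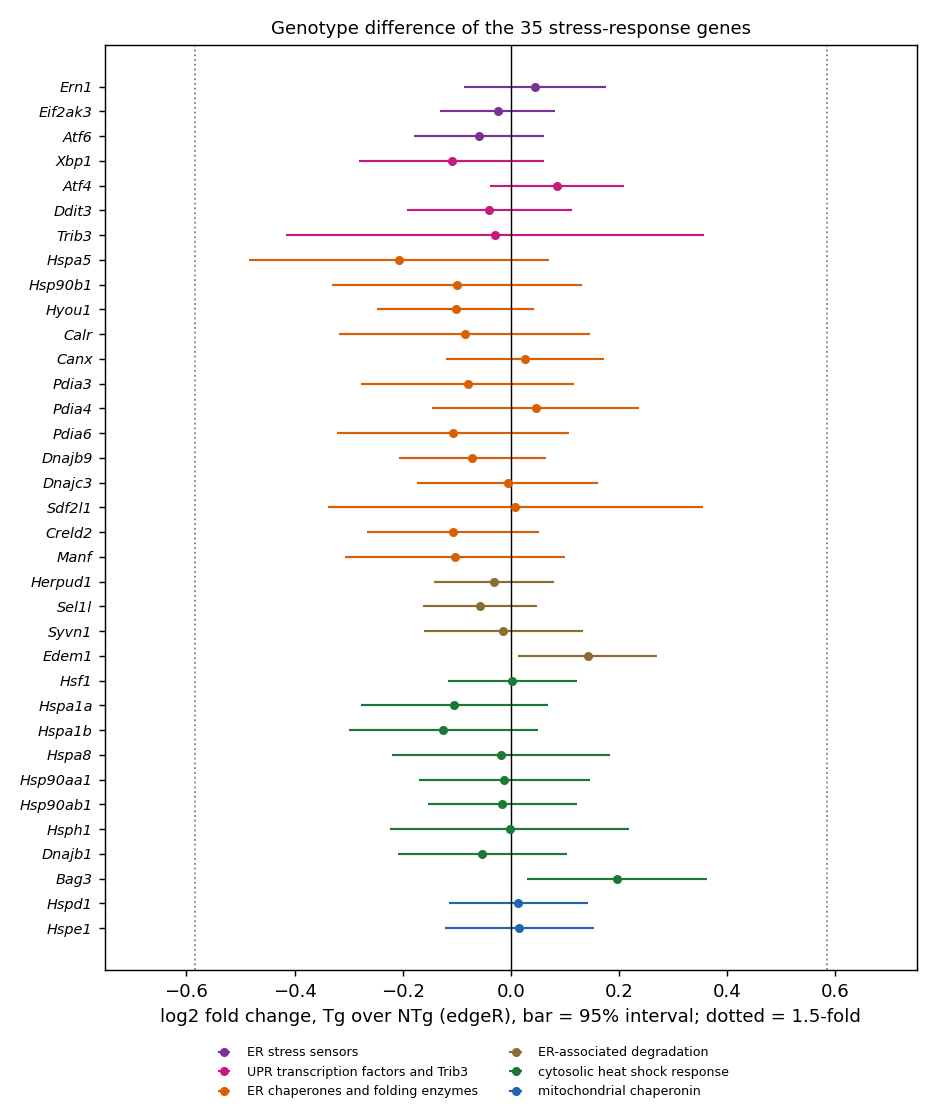
Log2 fold change (x axis, Tg over NTg) of each of the 35 genes (y axis, coloured by role), with bars for the 95% confidence interval from edgeR. All bars stay inside the dotted lines at 1.5-fold, and those of Bag3 and Edem1 alone do not reach 0.

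The labels were checked on App, whose mouse row can take reads of the human transgene. It stood at 2532, 2934, 2980 and 2958 CPM (counts relative to the TMM-scaled library size) in the Tg libraries, against 1623, 1486, 1452 and 1390 CPM in NTg (edgeR adjusted p = 0.00146). Tg replicate 1 had the lowest level of microglial markers among the Tg libraries, at 431 CPM summed over 10 genes where the others had 704 to 720 and NTg libraries 311 to 402 CPM. All 10 of these markers had a positive log2 fold change, and all 8 choroid plexus markers, from an epithelium that secretes much protein, had a negative one (728 to 1119 CPM summed in Tg and 1189 to 1597 CPM in NTg). Endothelial markers were also below 0 in 6 of 6 (142 to 194 CPM summed in Tg and 188 to 225 CPM in NTg), as were oligodendrocyte markers in 6 of 6 (6519 to 7985 CPM in Tg and 7736 to 9564 CPM in NTg). Red blood cell markers were below 0 in 5 of 5 with 0 at an unadjusted p under 0.05, and summed to 3003, 489, 732 and 448 CPM in Tg, against 1282 to 3271 CPM in NTg. The part of these cell markers in the levels of the chaperones was not tested.

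For the 3 ER stress sensors the intervals of the fold change spanned 1. Ern1, the kinase and nuclease that splices Xbp1, stood at 13.2, 14.6, 14.0 and 14.3 CPM in Tg, against 13.1, 14.1, 13.9 and 13.3 CPM in NTg (log2 fold change 0.045, 95% interval -0.086 to 0.18). The genotypes overlapped. Eif2ak3, the kinase that slows translation by phosphorylating eIF2 alpha, averaged 29.5 ± 0.83 CPM in Tg and 30.0 ± 1.22 CPM in NTg (SD, n = 4 each). Atf6, a membrane-bound transcription factor, averaged 78.9 ± 5.11 CPM in Tg and 82.1 ± 2.44 CPM in NTg, with its lowest value, 71.3 CPM, in Tg replicate 1. Per kilobase of exon, the levels ran from Atf6 at 8.72 CPM over Eif2ak3 at 4.94 CPM to Ern1 at 1.69 CPM.

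Of the transcription factor genes and Trib3, 1 had a positive fold change and 3 a negative one, and 0 passed the test. Xbp1, which drives ER chaperone and degradation genes after splicing, stood at 70.6, 71.4, 86.2 and 69.6 CPM in Tg, against 74.1, 86.5, 80.5 and 80.1 CPM in NTg. Apart from Tg replicate 3, the Tg libraries lay below every NTg library. Its log2 fold change was -0.11 (SE 0.077, edgeR adjusted p = 0.86). Atf4, the factor translated when eIF2 alpha is phosphorylated, stood at 94.7, 101, 107 and 110.7 CPM in Tg and at 94.7, 95.1, 102 and 98.6 CPM in NTg (log2 fold change 0.085, SE 0.056, edgeR adjusted p = 0.845). The groups overlapped, with Tg replicate 1 level with the lowest NTg library. Ddit3, which encodes CHOP, a factor of prolonged ER stress, averaged 17.0 ± 0.84 CPM in Tg and 17.5 ± 1.32 CPM in NTg (fold change 0.973, 95% interval 0.875 to 1.08). Trib3, a pseudokinase gene downstream of ATF4 and CHOP, was the scarcest member at 0.711 ± 0.082 CPM in Tg and 0.727 ± 0.113 CPM in NTg, and had the widest interval (fold change 0.750 to 1.28).

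Among the 13 ER chaperones and folding enzymes, 10 had a log2 fold change below 0 and 3 above, with a median of -0.086, and 0 passed edgeR or DESeq2 over all genes. Hspa5, the master ER chaperone BiP, stood at 269, 239, 350.4 and 235 CPM in Tg, against 282, 349.7, 320 and 310.0 CPM in NTg. In this gene 3 Tg libraries lay below all NTg libraries, and Tg replicate 3 lay above all of them. The log2 fold change was -0.21 (SE 0.12, edgeR adjusted p = 0.823).

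Hsp90b1, the ER member of the HSP90 family, repeated this layout. It stood at 232, 222, 303 and 215 CPM in Tg, against 239, 266, 266 and 269 CPM in NTg (log2 fold change -0.099, SE 0.10, edgeR adjusted p = 0.924). Calr, the lectin chaperone calreticulin, stood at 256, 287, 346 and 238 CPM in Tg and at 295, 318, 295 and 287 CPM in NTg. Tg replicate 3 was again the highest of the 8 libraries in both genes. The disulfide isomerase Pdia6 stood at 88.0, 86.3, 113.8 and 86.9 CPM in Tg and at 92.6, 109.9, 104 and 96.8 CPM in NTg. Manf, a secreted protein of the ER lumen that protects stressed neurons in rodents, stood at 33.4, 32.8, 42.1 and 31.8 CPM in Tg and at 34.99, 40.9, 37.6 and 37.0 CPM in NTg. For both, Tg replicate 3 lay above all NTg libraries and the other Tg libraries lay below them.

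The remaining 8 ER chaperones had log2 fold changes between -0.11 and 0.046. Pdia3, the isomerase that works with calreticulin, averaged 197.5 ± 25.9 CPM in Tg and 209 ± 12.6 CPM in NTg, and Pdia4, a further isomerase, averaged 42.0 ± 5.56 CPM in Tg and 40.7 ± 1.80 CPM in NTg (SD, n = 4 each). Canx, the membrane-bound lectin chaperone calnexin, averaged 419 ± 36.1 CPM in Tg and 412 ± 15.4 CPM in NTg. Hyou1, a nucleotide exchange factor and chaperone, averaged 98.3 ± 7.59 CPM in Tg and 105.5 ± 6.11 CPM in NTg. The BiP co-chaperones Dnajb9 (50.5 ± 1.74 CPM in Tg and 53.1 ± 4.26 CPM in NTg) and Dnajc3 (84.3 ± 8.91 CPM in Tg and 84.6 ± 4.66 CPM in NTg) had fitted fold changes of 0.952 and 0.996. Sdf2l1, a cofactor of BiP (10.33 ± 1.80 CPM in Tg and 10.27 ± 1.92 CPM in NTg), and Creld2, a stress-induced ER protein (12.1 ± 0.81 CPM in Tg and 13.0 ± 0.68 CPM in NTg) had adjusted p values of 0.998 and 0.846 in edgeR. The genotypes overlapped in all 13 ER chaperones.

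**Figure D2:**
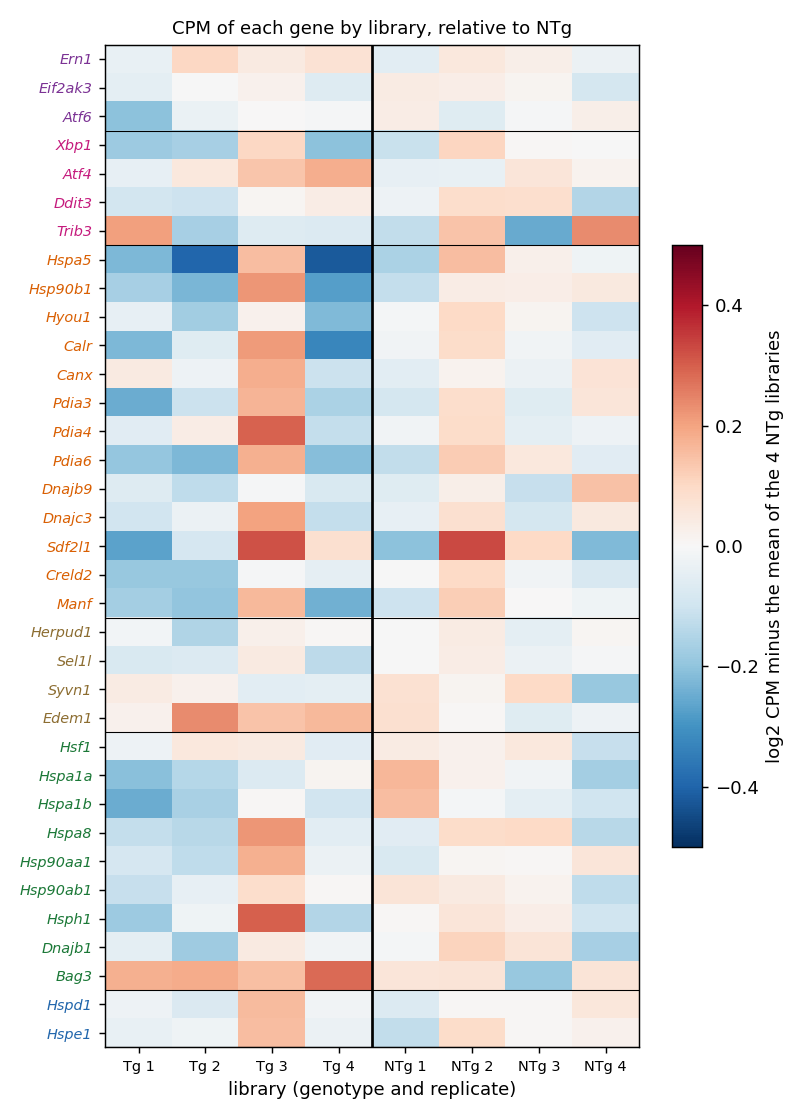
Level of each gene (rows, names coloured by role) in each library (columns, Tg left of NTg), as log2 CPM minus the mean of the 4 NTg libraries. Tg replicate 3 stands out as a red column over the ER chaperones, and the other Tg columns are mostly blue there.

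In these genes Tg replicate 3 stood apart from the other Tg libraries. By mean log2 CPM it was also the highest of the 8 libraries in further lists of related genes. These were ER folding and export (5.58), ER-associated degradation (5.83), cytosolic chaperones (6.175) and the TRiC chaperonin (7.27). It was not the highest for the further regulators, the PERK and ATF4 branch or mitochondrial proteostasis. By a chi-square on raw counts over all genes, Tg replicate 1 was the most distant Tg library (chi-square per degree of freedom 30.8 to 41.1 against the other Tg libraries, 22.6 to 24.4 among those). NTg replicate 4 was at 39.4 to 49.1 against the other NTg libraries. Counted by gene, Tg replicate 4 was most often the extreme Tg library. It was the highest of the 8 libraries in 16.6% of all genes and the lowest in 15.9%, against 11.3% and 11.8% for Tg replicate 1. Against the mean of the other Tg libraries, Tg replicate 3 was higher in 31 of 35 members (88.6%, against 49.8% of all genes tested), with a median of 0.16 on the log2 scale, and in 13 of 13 ER chaperones, with a median of 0.34. It was the highest of the 8 libraries in 16 of 35 members, where it was highest in 11.7% of all genes. NTg replicate 2 stood in the same way to the other NTg libraries, higher in 32 of 35 members (91.4%, against 50.6% of all genes) and in 13 of 13 ER chaperones, by a smaller median of 0.12. Tg replicate 4 was the lowest of the 8 libraries in 8 of 13 ER chaperones, and NTg replicate 1 was below the mean of the other NTg libraries in 13 of 13. Summed over the 35 genes, the libraries held 7353, 7376, 8906 and 7514 CPM in Tg, against 7737, 8269, 8102 and 7689 CPM in NTg. In this sum Tg replicate 3 was thus the highest of all and the other Tg libraries the lowest. The sum rests mostly on Hspa8, Hsp90aa1 and Hsp90ab1, which averaged 2013, 1374 and 1296 CPM in Tg. By mean log2 CPM, which weighs the 35 genes equally, Tg replicate 3 was also the highest and the other Tg libraries the lowest.

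In Tg replicate 3, the neuronal markers summed to 5935 CPM, while replicates 1, 2 and 4 had 5280 to 5774 CPM, the astrocyte markers to 4879 CPM, against 3526 to 5594 CPM, and the choroid plexus markers to 778 CPM, against 728 to 1119 CPM. Its immediate early genes summed to 361 CPM, against 199.5 to 398 CPM. Its total of 58176743 counts lay within the range of the others. Its forebrain neuron markers summed to 933 CPM, against 754.5 to 1095 CPM, and its plasma and B cell markers to 42.0 CPM, against 28.8 to 34.5 CPM. The part of these markers in the chaperone level was not tested.

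Tg replicate 3 was singled out because it was high in these genes, so values without it are a description: leaving it out lowers their Tg mean and spread by construction. Without it, edgeR still called 0 members over all genes (0.0137% of genes called). In that fit 7 members were lower in Tg at an unadjusted p under 0.05 in edgeR (3.2% of all genes), while the fit with all libraries and the 7 fits that left out another library had 0 members lower. They were Hspa5 (log2 fold change -0.35), Hsp90b1 (-0.22), Pdia6 (-0.21), Manf (-0.20), Calr (-0.20), Xbp1 (-0.19) and Pdia3 (-0.17), with edgeR adjusted p values from 0.308 (Hspa5) to 0.526 (Pdia3). Bag3 was the 1 member higher at that level (0.21; 4.93% of all genes). The median of the 13 ER chaperones was then -0.14, against -0.086 with all libraries, and 30 of 35 members had a negative fold change. There is no reason in the labels to set that library aside. Over all members, 8 of 35 (22.9%) had at least 3 Tg libraries below the lowest NTg library, where 8.55% of all genes did, and 2 of 35 had at least 3 above the highest NTg library, where 9.85% of all genes did. The first of these layouts was noticed in these genes and then counted, and in Calr the margin was 286.7 against 286.9 CPM.

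The spread of the ER chaperones within the Tg group was larger with Tg replicate 3 than without it. With all libraries the coefficient of variation was larger in Tg for 11 of 13 ER chaperones and for 23 of 35 members (65.7%, against 54.7% of all genes). Its median over the ER chaperones was 13.2% in Tg and 5.8% in NTg, and over all genes tested 10.1% in Tg and 9.25% in NTg. Without Tg replicate 3, an alternative chosen after seeing the data, the Tg median over the ER chaperones was 5.2%. The coefficient was then larger in Tg for 5 of 13 ER chaperones and 12 of 35 members. Leaving out a library picked as high lowers the Tg spread by construction, and no NTg library was left out here.

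**Figure D3:**
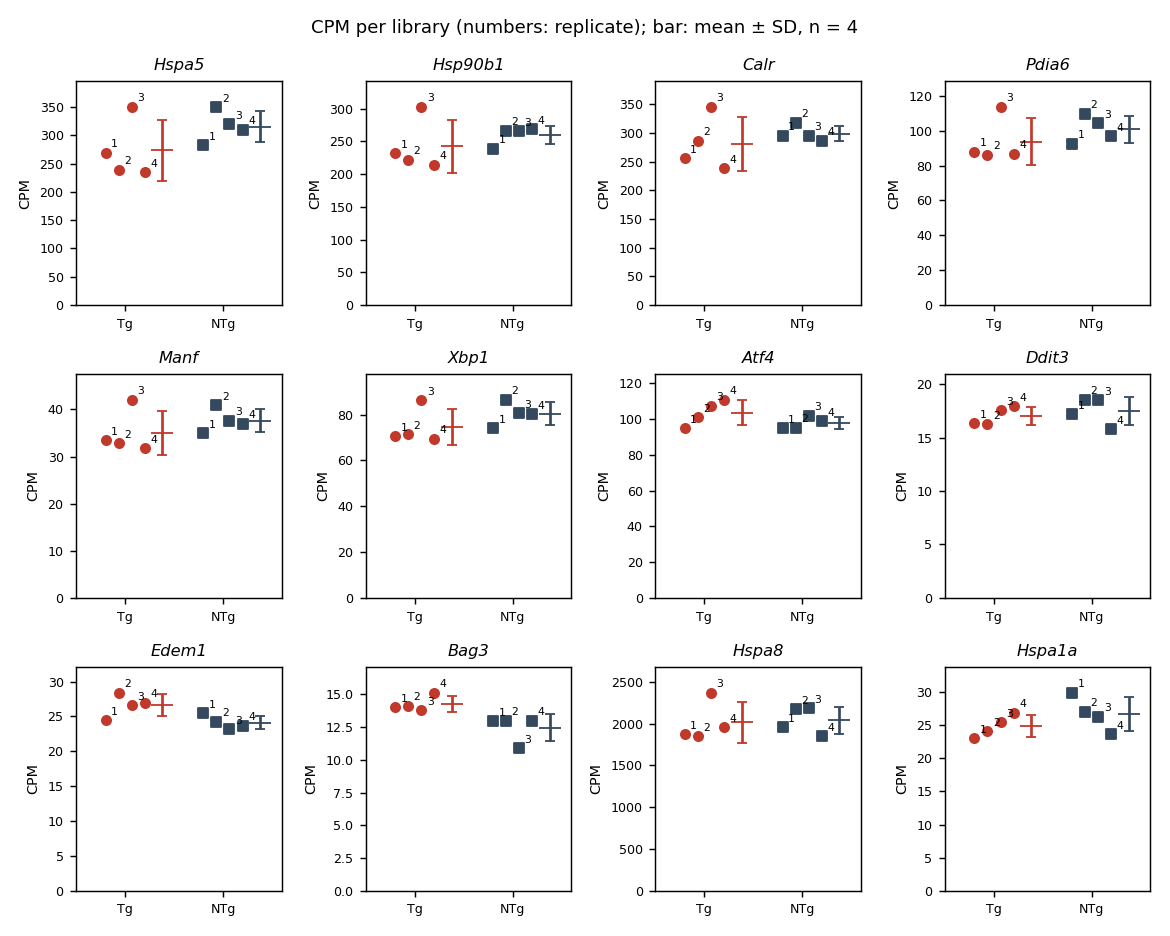
CPM (y axis, from 0) of 12 genes in each Tg and NTg library, with replicate numbers beside the points and mean ± SD to the right (n = 4). Tg replicate 3 is the top Tg point for Hspa5, Hsp90b1, Calr, Pdia6, Manf, Xbp1 and Hspa8, and Bag3 is the one gene whose genotypes do not overlap.

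ER-associated degradation carries misfolded protein back to the proteasome in the cytosol. Edem1, a lectin that marks misfolded glycoproteins for removal, stood at 24.5, 28.4, 26.6 and 27.0 CPM in Tg, against 25.5, 24.2, 23.1 and 23.7 CPM in NTg. Tg replicates 2, 3 and 4 exceeded the highest NTg value, and Tg replicate 1 did not. Its log2 fold change was 0.14 (SE 0.058, fold change 1.10, 95% interval 1.01 to 1.21, edgeR adjusted p = 0.603). Sel1l and Syvn1 encode the adaptor and the ubiquitin ligase of the retrotranslocation complex. Sel1l averaged 181 ± 9.26 CPM in Tg and 188 ± 3.48 CPM in NTg, and Syvn1 averaged 36.3 ± 1.24 CPM in Tg and 36.7 ± 3.22 CPM in NTg (SD, n = 4 each). Herpud1, a membrane organiser of that complex, averaged 49.2 ± 2.67 CPM in Tg and 50.3 ± 1.27 CPM in NTg (edgeR adjusted p = 0.961).

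The 9 cytosolic heat shock genes had a median log2 fold change of -0.016, and 1 of them passed an unadjusted p of 0.05. Bag3, a co-chaperone that couples HSP70 to selective autophagy, stood at 14.05, 14.14, 13.78 and 15.14 CPM in Tg, against 12.98, 13.0, 10.89 and 12.99 CPM in NTg. All 4 Tg libraries lay above all NTg libraries, which held for 1 of 35 members and for 2.62% of all genes in that direction. In the other direction 0 members and 1.58% of all genes had genotypes that did not overlap, 4.2% of all genes in both directions. The log2 fold change was 0.20 (SE 0.074, fold change 1.145, 95% interval 1.02 to 1.29, edgeR adjusted p = 0.551). NTg replicate 3 was the lowest by far, and without it the log2 fold change was 0.14 and the edgeR adjusted p = 0.843.

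The stress-inducible HSP70 genes had negative fold changes that did not pass the test. Hspa1a stood at 23.0, 24.1, 25.4 and 26.9 CPM in Tg, against 29.9, 27.0, 26.3 and 23.6 CPM in NTg, and Hspa1b stood at 12.8, 13.6, 15.3 and 14.3 CPM in Tg, against 17.0, 15.1, 14.8 and 14.2 CPM in NTg. NTg replicate 1 was the highest library in both. These neighbouring genes encode near-identical proteins, so reads may be split between them, and their summed counts gave a log2 fold change of -0.11 (edgeR adjusted p = 0.841). Hsf1, the master regulator of the response, averaged 30.96 ± 1.15 CPM in Tg and 30.9 ± 1.66 CPM in NTg. Dnajb1, the HSP40 partner of HSP70, averaged 48.1 ± 3.07 CPM in Tg and 49.9 ± 4.10 CPM in NTg (SD, n = 4 each).

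The cytosolic HSP70 and HSP90 chaperones were the most abundant members. Per kilobase of exon, Hspa8 (471 CPM), Hsp90ab1 (434 CPM) and Hsp90aa1 (351 CPM) led the list, followed by Calr (101 CPM) and Canx (88.6 CPM), while inducible Hspa1a (8.69 CPM) ranked 27 of 35 and Trib3 (0.338 CPM) last. Hspa8, the constitutive HSC70, stood at 1873, 1849, 2369 and 1959 CPM in Tg, against 1956, 2170, 2180 and 1849 CPM in NTg (fold change 0.987, 95% interval 0.858 to 1.14). Hsp90aa1, the stress-inducible HSP90, averaged 1374 ± 133 CPM in Tg and 1385 ± 53.25 CPM in NTg, and Hsp90ab1, the constitutive HSP90, averaged 1296 ± 75.4 CPM in Tg and 1310 ± 76.2 CPM in NTg. Hsph1, the HSP110 exchange factor, stood at 248.5, 277, 346 and 254.5 CPM in Tg and at 283, 294, 288 and 263 CPM in NTg, so that Tg replicate 3 again stood above all other libraries.

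The mitochondrial chaperonin genes Hspd1 and Hspe1 encode HSP60 and its lid, HSP10. Hspd1 stood at 178, 172, 202 and 179 CPM in Tg and at 173, 181.5, 182 and 188 CPM in NTg. Hspe1 stood at 53.9, 54.5, 61.5 and 54.2 CPM in Tg and at 50.8, 59.0, 55.6 and 56.15 CPM in NTg. Tg replicate 3 was the highest of the 8 libraries in both, and the genotypes overlapped.

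The score of each library, the mean log2 CPM over the 35 members, was 6.05, 6.06, 6.25 and 6.07 in Tg, against 6.11, 6.204, 6.13 and 6.11 in NTg. The Tg mean was 6.11 ± 0.095 and the NTg mean 6.14 ± 0.045 (SD, n = 4 each), a difference of -0.033, which is smaller than the spread between the libraries of either genotype. Over the 24 ER members the difference was -0.044, and over the 9 cytosolic heat shock members it was -0.016. These differences moved with single libraries: without Tg replicate 3 they were -0.093 and -0.056, and without NTg replicate 2 they were -0.019 and 0.0003. The cytosolic difference was 0.010 without Tg replicate 1 and 0 without Tg replicate 2. In both lists, with all libraries, Tg replicate 3 was the highest of the 8 libraries.

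**Figure D4:**
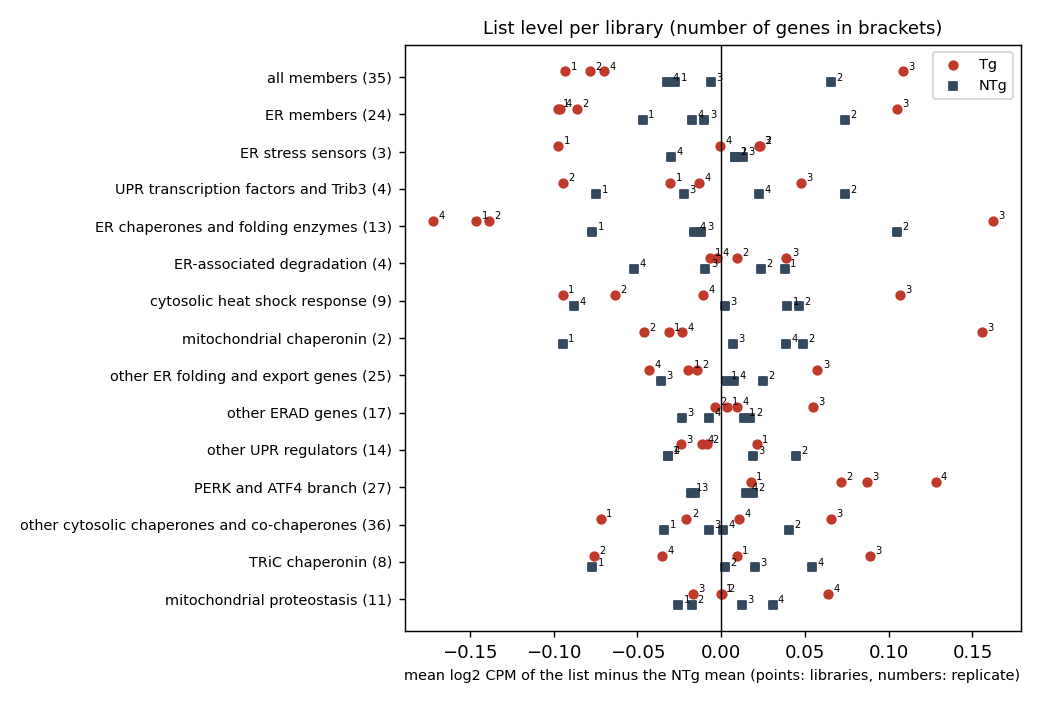
Mean log2 CPM of each gene list (rows) in each library, relative to the NTg mean (x axis), with replicate numbers beside the points. For all 35 genes Tg replicate 3 lies at 0.11 and the other Tg libraries between -0.093 and -0.070, while the NTg libraries lie between -0.032 and 0.0655.

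In the other lists of these pathways edgeR called 0 genes over all genes tested. At an unadjusted p under 0.05 in edgeR, 4.68% of all genes were higher in Tg and 2.68% lower. Of 25 further ER folding and export genes, 0 passed an unadjusted p of 0.05 and the median log2 fold change was -0.0061. Creld1 and Tram1, a translocon-associated protein, had the smallest p-values, with log2 fold changes of -0.10 and 0.12 (edgeR adjusted p = 0.775 and 0.847). The most abundant per kilobase were Tmed2, a cargo receptor of ER export, at 107.7 ± 6.82 CPM in Tg and 107.3 ± 5.08 CPM in NTg, and Selenok, at 86.6 ± 6.07 CPM in Tg and 87.7 ± 1.86 CPM in NTg. Of 17 further degradation genes, 1 did, Edem2, a homologue of Edem1, at 25.9 ± 2.75 CPM in Tg and 21.98 ± 2.06 CPM in NTg (log2 fold change 0.24, SE 0.090, edgeR adjusted p = 0.552). Vcp, the ATPase that pulls substrates out of the ER membrane, averaged 274.7 ± 6.82 CPM in Tg and 271 ± 6.43 CPM in NTg, Os9, a lectin of the pathway, 126.3 ± 2.78 CPM in Tg and 126.9 ± 6.40 CPM in NTg, and Derl2 had a log2 fold change of 0.087. Of 14 further regulators, 1 did, Wfs1, an ER membrane protein lost in Wolfram syndrome, at 100.9 ± 10.02 CPM in Tg and 84.9 ± 7.28 CPM in NTg (log2 fold change 0.25, edgeR adjusted p = 0.439). Traf2, an adaptor of IRE1, had a log2 fold change of 0.14 (edgeR adjusted p = 0.709), and Tmbim6, an ER membrane protein, averaged 308.8 ± 5.30 CPM in Tg and 303.8 ± 21.2 CPM in NTg. The 8 subunits of the TRiC chaperonin and the 11 genes of mitochondrial proteostasis had medians of -0.0094 and -0.0028, with 0 at an unadjusted p under 0.05. In them the log2 fold changes of Cct2, Cct3, Cct5 and Cct8 lay between -0.018 and 0.033, and those of Clpx, Hscb, Clpp and Trap1 between -0.070 and 0.16.

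The list of the PERK and ATF4 branch was drawn more widely, as genes of the integrated stress response. Among its 27 genes, 3 were higher and 1 lower at an unadjusted p under 0.05 in edgeR. Over all genes, 4.68% were higher and 2.68% lower. Whether that branch was active was not tested. The score of this list was 4.53, 4.59, 4.602 and 4.64 in Tg, against 4.497, 4.53, 4.5 and 4.53 in NTg, with Tg replicate 1 inside the NTg range. Atf3, a stress-induced factor, stood at 2.22, 3.37, 3.58 and 3.15 CPM in Tg, against 2.11, 2.02, 2.13 and 1.82 CPM in NTg (log2 fold change 0.61, SE 0.16, edgeR adjusted p = 0.230). Eif2ak2, the double-stranded RNA kinase PKR, which is also an interferon-induced gene, stood at 12.5, 11.1, 11.2 and 13.0 CPM in Tg, against 10.5, 8.29, 7.96 and 8.98 CPM in NTg (log2 fold change 0.42, SE 0.10, edgeR adjusted p = 0.195). The genotypes did not overlap in these 2 of the 27 genes, both higher in Tg, and in 2.62% (higher) and 1.58% (lower) of all genes. DESeq2, which called 1.63% of all genes, called both (adjusted p = 0.0489 and 0.0148). The third gene was Nfe2l2, the oxidative stress factor NRF2, at 24.7 ± 3.76 CPM in Tg and 20.5 ± 1.14 CPM in NTg, and the lower one was Phgdh, the first enzyme of serine synthesis, at 63.7 ± 5.499 CPM in Tg and 71.7 ± 2.57 CPM in NTg. ATF4 targets of amino acid supply included Asns, asparagine synthetase, at 79.4 to 90.1 CPM in Tg and 82.4 to 85.7 CPM in NTg, and Psat1, of serine synthesis, at 120.2 ± 5.71 CPM in Tg and 122.1 ± 7.60 CPM in NTg.

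Among 36 further cytosolic chaperones and co-chaperones, 2 small heat shock protein genes were higher and 2 other genes lower at an unadjusted p under 0.05, where 4.68% of all genes were higher and 2.68% lower. The genotypes did not overlap in 1 higher and 2 lower genes of this list, and in 2.62% (higher) and 1.58% (lower) of all genes. Hspb6 stood at 4.88, 7.28, 6.73 and 8.06 CPM in Tg, against 4.11, 4.56, 4.03 and 4.60 CPM in NTg, with no overlap (log2 fold change 0.64, SE 0.15, adjusted p = 0.176 in edgeR and 0.00713 in DESeq2). Hspb8, the partner of BAG3 in selective autophagy, stood at 17.6, 20.9, 20.2 and 26.5 CPM in Tg, against 15.9, 17.9, 14.8 and 19.3 CPM in NTg (log2 fold change 0.33, SE 0.13, edgeR adjusted p = 0.561). Tg replicate 1 had the lowest Tg value of both, as it did for the astrocyte marker Gfap (607 CPM, with Tg replicates 2 to 4 at 1533 to 2057 CPM and NTg at 392.3 to 461 CPM). Summed over 8 astrocyte markers it was also the lowest Tg library (3526 CPM, with the others at 4879 to 5594 CPM). Of these 8 markers, 7 had a positive log2 fold change and 1 a negative one. At an unadjusted p under 0.05 in edgeR, 4 were higher and 0 lower. Tg replicate 1 was likewise the lowest Tg library in summed CPM of microglial (431), neuron (5280) and forebrain neuron (754.5) markers. The same held for plasma and B cell markers (28.8) and immediate early genes (199.5). It was not the lowest for oligodendrocyte, endothelial, choroid plexus or red blood cell markers. The part of astrocytes or of any other cell type in these values was not tested. The lower genes, in which the genotypes did not overlap, were Hspa12a, a distant HSP70 relative, at 222 ± 5.59 CPM in Tg and 245 ± 12.2 CPM in NTg, and the synaptic co-chaperone Dnajc5 at 376.5 ± 4.30 CPM in Tg and 403 ± 15.45 CPM in NTg (edgeR adjusted p = 0.425 and 0.677). The most abundant per kilobase were Stip1, which links HSP70 to HSP90, with a log2 fold change of -0.044, and Hsbp1, a binding partner of HSF1, with 0.017.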

How the data were processed

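Polyadenylated RNA of 4 Tg and 4 NTg libraries (TruSeq v2, which does not keep strand, paired-end) was measured. The authors deposited raw counts per gene for all libraries, and the submitters' processing notes list GRCm39 as build and name STAR and DESeq2, while the counting tool is not given in the sources used here. Rows with a gene symbol held 99.58% of the counts. Genes were filtered with filterByExpr (minimum count 10, minimum total 15), scaled by TMM and tested with the quasi-likelihood F test of edgeR 4.0.16 (R 4.3.3) without covariates. P-values were adjusted by Benjamini-Hochberg over 21588 genes at 0.05, and DESeq2 1.42.0 and limma 3.58.1 were alternatives. Standard errors are the size of the log2 fold change over the root of F. Scores are mean log2 CPM with a prior count of 2 and carry no p. The test was checked on simulated data.

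The members and the other gene lists were chosen with earlier results of these data known. All members are named, and of each other list the 2 genes with the smallest p and the 2 most abundant per kilobase; Nfe2l2, Phgdh, Hspb8, Dnajc5 and Gfap were chosen after their values were seen. Alternatives were other scaling, filters, tools, a replicate block and each library left out. With 4 libraries a genotype the spread is estimated from few samples, and counts in the libraries ranged from 57129090 to 65242741.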

Additional observations from a re-analysis of the deposited data

Results flagged for a closer look

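Among 76 groups of 4 libraries checked with Dixon's test, 8 held a library far from the other 3 of its genotype, where chance gives about 1 in 20 groups. The genes share libraries, so these are not independent. In Tg replicate 3, Xbp1 stood at 86.24 CPM, with the other Tg libraries at 69.56 to 71.38 CPM. Pdia6 stood at 113.8 CPM there, with the others at 86.29 to 88.03 CPM. Manf stood at 42.07 CPM, with the others at 31.77 to 33.44 CPM, and Hspe1 at 61.5 CPM, with the others at 53.86 to 54.51 CPM. The score of Tg replicate 3 was 6.247 over all members (6.046 to 6.069 in the others) and 5.886 over the ER members (5.684 to 5.695 in the others). Bag3 was low in NTg replicate 3, at 10.89 CPM with the others at 12.98 to 13 CPM, and Hsp90b1 was low in NTg replicate 1, at 239.2 CPM with the others at 265.8 to 268.9 CPM.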

How the results depend on the processing

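The count of members called was 0 under all 18 alternatives. Of 631 fold changes of members recomputed, 579 kept their direction and their side of the threshold. The other 52 changed sign and were not called. They reached -0.1025 on the log2 scale (Sdf2l1 without Tg replicate 3, against 0.0084 with all libraries). The lowest adjusted p was 0.253 (edgeR, Edem1 without Tg replicate 1). Genes called over all genes numbered 352 with DESeq2, 12 with limma-voom and quality weights, 127 with no filter on low counts and 1 with the replicate block, against 3 in the edgeR test, and ranged from 3 to 314 with a library left out (314 for Tg replicate 1, 16 for NTg replicate 1 and 9 for Tg replicate 2); the cause was not tested. The deviations of same-numbered libraries from their genotype means had correlations of 0.066, -0.032, 0.155 and -0.009. Weak correlations cannot show that the samples are unpaired. The replicate block called 0 members, as did the fit without it. The differences in score moved by less than 1 SD between libraries under every alternative run, and ranged from -0.0933 to -0.0186 over the ER members and from -0.0564 to 0.0104 over the cytosolic members with a library left out. With no scaling factors they were -0.019 and 0.0091, and with a median in place of the mean over members -0.0783 and -0.051.

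Signs changed for Hsf1 (-0.001 with DESeq2, -0.0066 with quality weights, -8e-04 with RLE factors), Sdf2l1 (-0.095) and Hspe1 (-0.0045) with quality weights, and Hsph1 (0.0031 with upper quartile factors, 0.0016 with a mean CPM of 1 or more). With no scaling factors, which moved the median of all genes to 0.0225, they changed for Hsph1 (0.0215), Dnajc3 (0.0183), Syvn1 (0.0102), Hspa8 (0.0053), Hsp90aa1 (0.0126) and Hsp90ab1 (0.0081).

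With a library left out, the log2 fold change crossed 0 for Dnajc3 (-0.0818 to 0.0297), Hspa8 (-0.1063 to 0.0197), Hsp90aa1 (-0.0806 to 0.0246), Hsp90ab1 (-0.0547 to 0.0158), Hsph1 (-0.1165 to 0.0535), Trib3 (-0.1137 to 0.0523), Herpud1 (-0.0508 to 0.006), Hsf1 (-0.0334 to 0.0222), Canx (-0.0296 to 0.0678), Pdia4 (-0.0471 to 0.0974), Sdf2l1 (-0.1025 to 0.1295), Syvn1 (-0.0721 to 0.0177), Hspd1 (-0.0375 to 0.0409) and Hspe1 (-0.0322 to 0.0481).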
